A study of Mus musculus with 8 samples.

Results

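The genes described here are 10 transcription factor genes that mark the neuronal lineages of the spinal dorsal horn: Lmx1b, Tlx3, Rora and Maf, used as genes of excitatory neurons, Pax2, Lhx1, Tfap2b and Rorb, used as genes of inhibitory neurons, and Lbx1 and Zfhx3, which both classes share. The 10 members were named by symbol and were found in the deposited tables among 49585 gene identifiers, each with 1 identifier. All 10 had a mean of at least 1 FPKM (fragments counted, divided by transcript length and by the size of the library) and so were among the 15061 genes tested. The tissue was lumbar dorsal horn (segments 4 to 6) of adult C57BL/6J mice, and polyadenylated RNA of 4 wild-type libraries was compared with that of 4 libraries of miR-96 knock-out mice, a strain without this microRNA. How the knock-out allele was made is not given in the sources used here, and neither is the number of animals behind a library, so the p-values measure the spread between libraries, which may in part be technical. The title of the series ties the loss of miR-96 to allodynia, pain from harmless touch.

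Dorsal horn neurons are born from dorsal progenitors of the embryonic cord, and homeobox, LIM homeobox and paired-box factors set their transmitter class. Lbx1 marks the neurons that settle in the dorsal horn. Within that population Tlx3 and Lmx1b favour the glutamatergic fate, whereas Pax2, Lhx1 and Tfap2b act in the GABAergic and glycinergic lineage. Maf, Rora, Rorb and Zfhx3 label later subtypes or layers, and several of these genes stay active in the adult cord.

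The libraries differed in ways that genotype does not account for. Wild type replicate 1 stood apart, with a summed level of 5 blood markers of 199 FPKM against 5.96 to 39.3 in the other 7 libraries, and of 10 oligodendrocyte markers of 15740 FPKM against 9791 to 11960. A set of 7 markers covered motor neurons, which lie outside the dorsal horn, and cholinergic neurons in general. It summed to 26.3 to 92.5 FPKM in wild type and 35.1 to 106 in knock-out, with wild type replicate 4 lowest. Transmitter genes of excitatory and inhibitory neurons were abundant in both genotypes: the vesicular glutamate transporter Slc17a6 had a mean of 112 FPKM and the vesicular GABA transporter Slc32a1 of 81.7. Estimated depth ran from 31800000 to 42800000 fragments per library. At that depth a member's value rested on roughly 270 fragments (Tlx3 in its lowest library) to 12000 (Rora in its highest), and counting error was at most about 6.1%.

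No member differed between the genotypes past the threshold. In limma, 0 of the 10 members had an adjusted p under 0.05, and the same held for 0 of the 15061 genes (0% called). At an unadjusted p under 0.05 there were 2 members, Maf and Rora, both higher in knock-out, where 3.69% of all genes tested were called in that direction and 5.52% in either. No member was lower at that threshold (0 of 10, against 1.83% of genes). Log2 fold changes, knock-out minus wild type on the log2(FPKM + 1) scale, ran from -0.22 for Tlx3 to 0.34 for Maf. Their median was 0.084 with 7 of 10 above 0, beside a median of 0.014 and 53.1% above 0 over all genes tested. Single libraries turned that median: it was -0.025 with 4 of 10 above 0 without wild type replicate 1, and 0.233 with 8 of 10 above 0 without wild type replicate 4. In bulk tissue, fewer cells of a type and less RNA per cell cannot be told apart.

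Maf, the bZIP factor of deep dorsal horn layers that receive touch input, lies on chromosome 8 (GRCm38, 115682942 to 115707794, minus strand). Wild type replicates 1 to 4 held 9.24, 12.97, 10.7 and 13.2 FPKM of it, and knock-out replicates 1 to 4 held 15.01, 14.7, 13.96 and 15.1 FPKM. Every knock-out library was above every wild-type library, and Maf was the only member whose groups did not overlap, a separation found in 3.03% of all genes tested (1.91% with knock-out higher). The means were 11.5 ± 1.90 (SD, n = 4) and 14.7 ± 0.514 FPKM. The log2 fold change was 0.34 (SE 0.12, 95% interval 0.080 to 0.60), with an unadjusted limma p of 0.0156 and an adjusted p of 0.62. The exact permutation p was 0.0286 (two-sided), the smallest that 4 against 4 libraries can give. The knock-out libraries lay close together, with a coefficient of variation of 3.5% against 16.5% in wild type. Without wild type replicate 1, the lowest library, the log2 fold change was 0.25 (limma adjusted p = 0.829). Maf transcripts are also found in macrophages, and the 10 microglia and macrophage markers summed to 149 to 236 FPKM in wild type and 163 to 194 in knock-out. The 10 meningeal fibroblast markers had a higher mean in knock-out in 10 of 10 cases, where 53.1% of all genes tested had a log2 fold change above 0. They summed to 98.2 to 152 FPKM in wild type. Knock-out replicates 1 and 3 held 242 and 173 FPKM, whereas replicates 2 and 4 held 101 and 106, inside the wild-type range. Alb, the serum albumin gene of liver, also had every knock-out library above every wild-type library, with means of 23.1 ± 9.11 and 2.42 ± 2.91 FPKM (SD, n = 4). The part of these in the Maf values was not tested.

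Rora, an orphan nuclear receptor of excitatory interneurons that carry light touch (chromosome 9, 68653786 to 69388246, plus strand), was at 16.5, 15.5, 17.7 and 21.9 FPKM in wild type and at 27.6, 24.3, 17.8 and 22.01 in knock-out. In Rora, 3 knock-out libraries were above every wild-type library, while knock-out replicate 3 was level with wild type replicate 3. The means were 17.9 ± 2.82 and 22.9 ± 4.12 FPKM (SD, n = 4), and the log2 fold change was 0.33 (SE 0.15, unadjusted limma p = 0.0465, adjusted p = 0.62, exact permutation p = 0.0571). Rora is also active in astrocytes, whose 10 markers summed to 3546 to 4100 FPKM in wild type and 3595 to 3961 in knock-out. When libraries were weighted by their estimated quality, Maf (log2 fold change 0.38, limma adjusted p = 0.0389) and Rora (0.41, adjusted p = 0.0392) passed the threshold, among 1627 genes that did. Those weights gave wild type replicate 3 a weight of 5.09 and replicate 1 a weight of 0.153, so that the wild-type mean rested mainly on replicate 3.

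Tlx3 and Lmx1b, the homeobox pair of the glutamatergic lineage, did not follow Maf and Rora. Tlx3 (chromosome 11, 33200752 to 33203589, minus strand) was at 11.98, 6.13, 6.00 and 7.90 FPKM in wild type and at 5.93, 6.21, 7.57 and 6.34 in knock-out. Wild type replicate 1 alone was far up, and the other 7 libraries lay between 5.93 and 7.90 FPKM. The log2 fold change was -0.22 (SE 0.19, adjusted p = 0.646 in limma), and without wild type replicate 1 it was -0.027. Lmx1b (chromosome 2, 33560965 to 33640511, minus strand) was at 15.1, 17.1, 14.5 and 20.7 FPKM in wild type and at 13.4, 15.7, 21.2 and 16.8 in knock-out. The groups covered the same range, with means of 16.8 ± 2.77 and 16.8 ± 3.27 FPKM (SD, n = 4) and a log2 fold change of -0.0088 (95% interval -0.34 to 0.33).

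**Figure D1:**
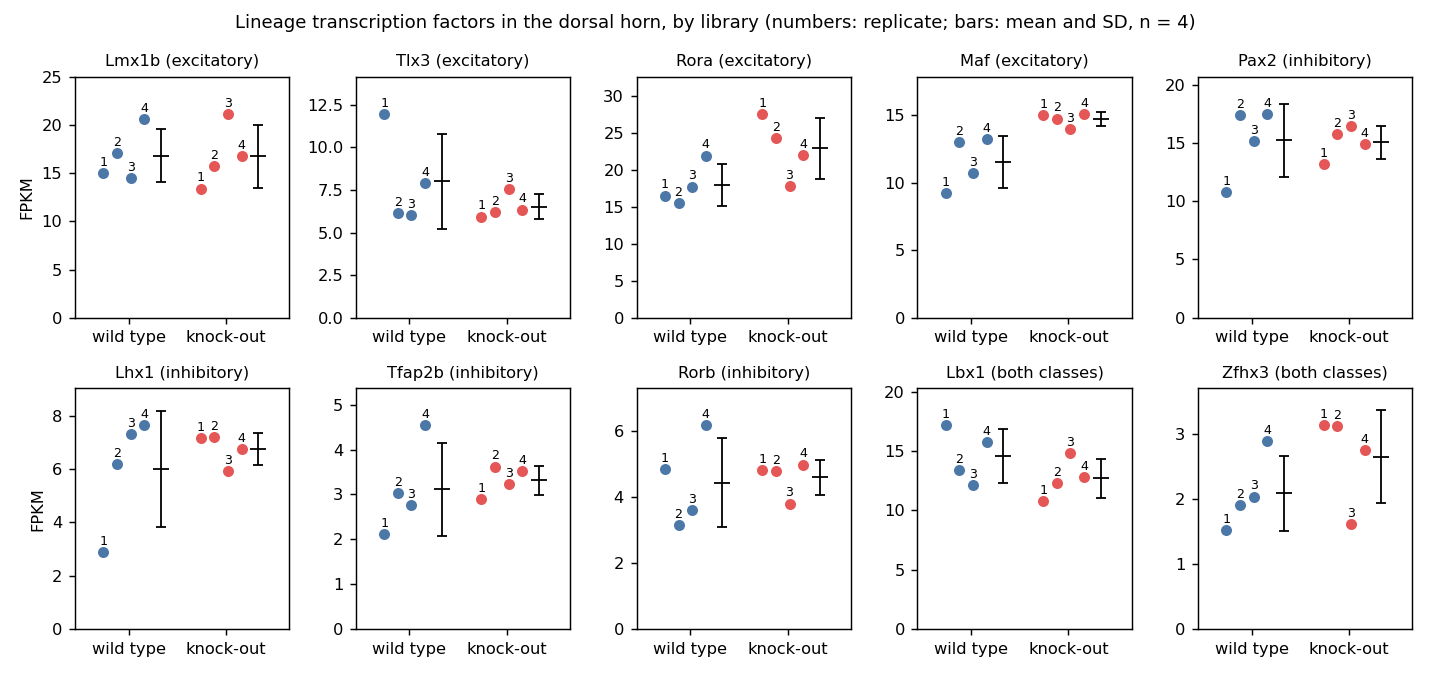
FPKM of the 10 members in each library; the y axes start at 0, points are libraries labelled by replicate number, and bars give the mean and SD of 4 libraries. Maf alone has every knock-out point (13.96 to 15.1 FPKM) above every wild-type point (9.24 to 13.2), and wild type replicate 1 is the lowest point for 5 members and the highest for 2.

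The 4 inhibitory lineage genes had overlapping groups throughout. Pax2, the paired-box gene required for the GABAergic phenotype (chromosome 19, 44756045 to 44837871, plus strand), was at 10.8, 17.5, 15.2 and 17.5 FPKM in wild type and at 13.2, 15.8, 16.5 and 14.9 in knock-out. Its log2 fold change was 0.0052 (SE 0.15, 95% interval -0.33 to 0.34), and wild type replicate 1 was the lowest library. Without that library the log2 fold change was -0.14 (limma adjusted p = 0.829). Lhx1, a LIM homeobox gene that helps maintain the inhibitory identity (chromosome 11, 84518284 to 84525535, minus strand), was at 2.89, 6.19, 7.30 and 7.64 FPKM in wild type and at 7.16, 7.19, 5.91 and 6.75 in knock-out. Wild type replicate 1 held less than any other library, and the remaining 7 ranged from 5.91 to 7.64 FPKM. The log2 difference of 0.21 (SE 0.23, adjusted p = 0.708 in limma) turned to -0.052 without it.

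Tfap2b, which encodes the AP-2 beta factor (chromosome 1, 19208914 to 19238576, plus strand), was at 2.12, 3.02, 2.76 and 4.55 FPKM in wild type and at 2.90, 3.62, 3.22 and 3.52 in knock-out. All 4 knock-out libraries lay inside the wild-type range, and the log2 fold change was 0.099 (SE 0.17, limma adjusted p = 0.813). It was -0.024 without wild type replicate 1 and 0.25 without wild type replicate 4. Rorb, the orphan receptor of inhibitory interneurons in the deep dorsal horn (chromosome 19, 18930605 to 19111196, minus strand), was at 4.84, 3.15, 3.60 and 6.19 FPKM in wild type and at 4.82, 4.78, 3.81 and 4.99 in knock-out. Here too the knock-out libraries fell inside the wild-type range (log2 fold change 0.068, SE 0.17, limma adjusted p = 0.882). Without wild type replicate 4 the value was 0.21, and without replicate 2 it was -0.052. Wild type replicate 4 was the highest of the 8 libraries for Pax2, Lhx1, Tfap2b and Rorb alike. Its summed level of the 4 genes was 35.9 FPKM, against 20.6 in wild type replicate 1 and 28.1 to 31.4 in the other 6. The same library also had the highest sum of the 4 excitatory members, 63.6 FPKM against 48.9 to 61.9 elsewhere. Singly, none of these peaked there: Lmx1b was highest in knock-out replicate 3, Tlx3 in wild type replicate 1, Rora in knock-out replicate 1 and Maf in knock-out replicate 4.

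Lbx1, the homeobox gene of the whole dorsal association lineage (chromosome 19, 45232684 to 45235812, minus strand), was at 17.2, 13.4, 12.1 and 15.7 FPKM in wild type and at 10.8, 12.3, 14.8 and 12.8 in knock-out. The groups overlapped, and the difference was -0.18 on the log2 scale (SE 0.13, adjusted p = 0.622 in limma). Lbx1 was at -0.11 without wild type replicate 1, its highest library, at -0.12 without knock-out replicate 1, its lowest, at -0.032 with library weights and at -0.069 with the length and GC trends removed. Zfhx3, a zinc finger homeobox gene of both transmitter classes (chromosome 8, 107942644 to 108961630 in the annotation, plus strand), was the scarcest member. It was at 1.52, 1.91, 2.03 and 2.89 FPKM in wild type and at 3.14, 3.12, 1.61 and 2.75 in knock-out. Knock-out replicates 1 and 2 were above every wild-type library and replicate 3 was near the lowest, and the log2 fold change was 0.24 (SE 0.19, limma adjusted p = 0.633). Without wild type replicate 1 it was 0.15, and without knock-out replicate 3 it was 0.39. The deposited locus of Zfhx3 starts at 108703100, downstream of the annotated start, so the authors' gene model was the shorter. For the other 9 members the deposited and annotated loci were the same.

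**Figure D2:**
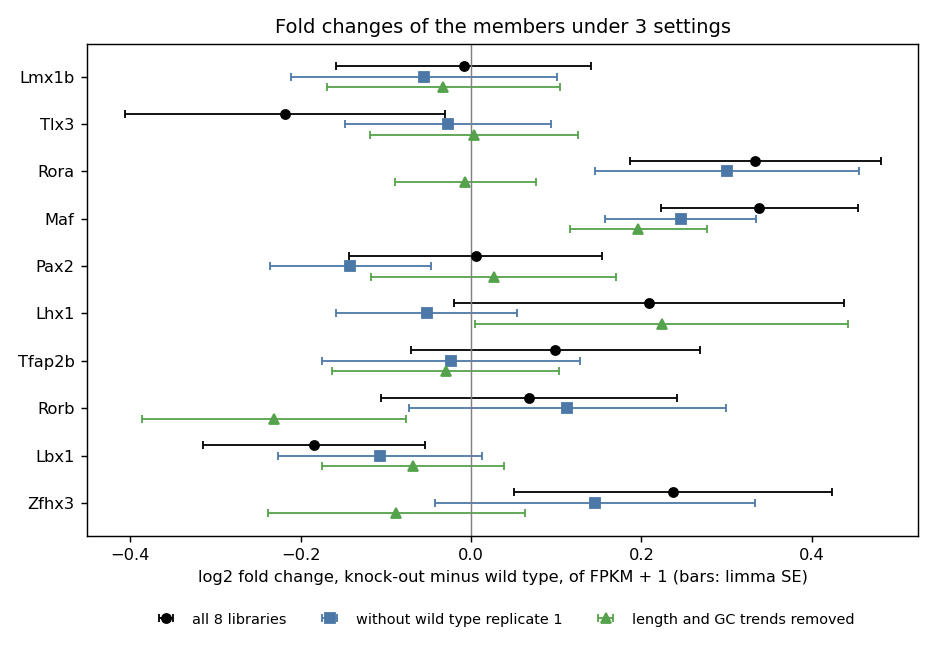
Log2 fold change of each member (knock-out minus wild type, bars are standard errors from limma) with all 8 libraries, without wild type replicate 1, and after removal of the length and GC trends. Maf lies above 0 in all 3 fits (0.34, 0.25 and 0.20), while Rora lies at 0.33, 0.30 and -0.0069.

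The fold changes of the members followed the length of their transcripts. Tlx3 and Lbx1, with the shortest transcripts (1533 and 2484 nt for the longest annotated form, 67.3% and 61.6% GC), were lower in mean in knock-out. The genes of 6000 nt or more, Maf (6360 nt), Rorb (9293 nt), Rora (10878 nt) and Zfhx3 (17152 nt in the annotation), were all higher in mean. So were most genes of that length: 91.9% of the 2046 tested had a log2 fold change above 0. The share was 33.3% below 2000 nt and 42.7% from 2000 to 4000 nt. Across the 10 members Pearson's r of log2 fold change with log2 length was 0.77 and Spearman's rho 0.745, given as a description because genes are not independent replicates. All genes tested showed the same order: the median log2 fold change was -0.11 below 2000 nt, -0.027 from 2000 to 4000 nt, 0.068 from 4000 to 6000 nt and 0.20 above that (Spearman's rho 0.437 over 15023 genes).

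After removal of each library's length trend, the median of the members was -0.054 with 3 of 10 above 0. Rora was then at 0.066 (SE 0.12, limma adjusted p = 0.876), Zfhx3 at -0.12 and Rorb at -0.17. With the GC trend removed as well, Rora was at -0.0069, Zfhx3 at -0.088, Tlx3 at 0.0031 and Rorb at -0.23 (limma adjusted p = 0.788). Maf kept the larger part of its difference, at 0.20 with either correction (SE 0.083 and 0.080, limma adjusted p = 0.755 and 0.788). Its 4 knock-out libraries stayed above the 4 wild-type libraries in both cases (exact permutation p = 0.0286, two-sided, the smallest that can be reached). The gap was narrow, from 3.861 to 3.88 on the log2 scale with the length trend removed. The share of all genes tested that separate after these corrections was not counted. With both trends removed the wild-type libraries lay between 3.54 and 3.84 on the log2 scale and the knock-out libraries between 3.85 and 3.94.

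**Figure D3:**
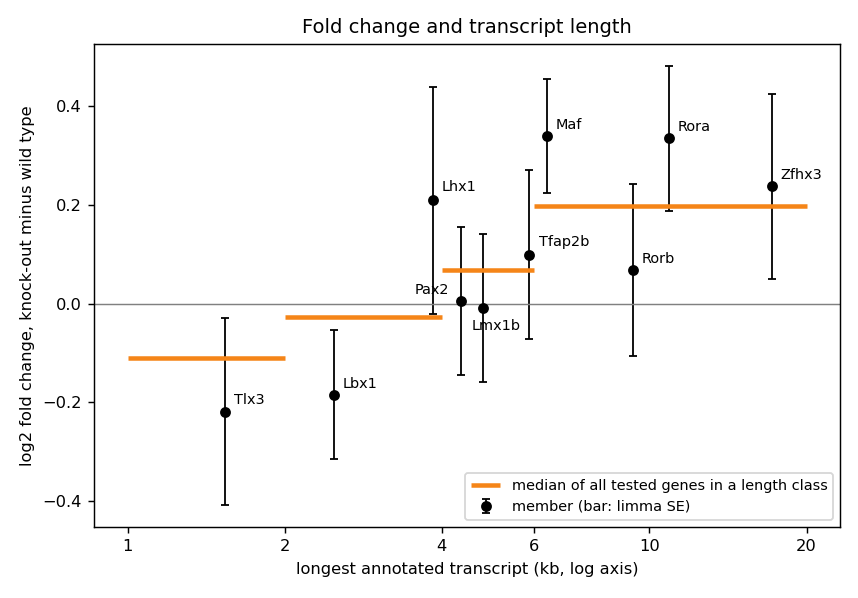
Log2 fold change of each member (points, with limma standard errors) against the length of its longest annotated transcript on a log axis, with the median of all tested genes in 4 length classes as orange lines. Tlx3 and Lbx1 lie lowest at the short end, and Maf, Rora and Zfhx3 lie above 0.2 among the genes of 6000 nt or more.

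miR-96 pairs with targets through its seed, bases 2 to 8 from the 5′ end, and its loss can raise a target's transcript level. Its mature sequence (RefSeq, GRCm38.p6, chromosome 6, 30169506 to 30169528, minus strand) is printed with the matches found in the members. The matches show which of the 10 genes hold a 7-base motif of the kinds searched. Other kinds of pairing were not searched. Capitals mark the seed in the microRNA and the 7-base match in the transcripts, all written 5′ to 3′, and the transcript windows come from the GENCODE M21 sequences.
mmu-miR-96-5p: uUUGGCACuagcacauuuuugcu
Maf, first match: tggccttatgaTGCCAAAtctgaaagttt
Maf, second match: aattgtgctatTGCCAAAagcagtctaaa
Lhx1, first match: tgatttgttttTGCCAAAattgcaaaatt
Lhx1, second match: attcagacagtTGCCAAAtagaataaatt
Tfap2b: ttcttctttaaTGCCAAAaccgtttctcc
Rorb: atatatcccaaTGCCAAAattctatccta

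The matches were searched on the transcript strand of each gene's longest 3′ UTR, and a match is a description of the letters, not a measured site. The motif GTGCCAA, the complement of bases 2 to 8, was in none of the 10 members (0 of 10, against 10.1% of the 13152 tested protein-coding genes). The motif TGCCAAA, the complement of bases 2 to 7 followed by A, was in 4 of 10 members, against 14.7% of those genes. It overlaps GTGCCAA by 6 bases. The members' UTRs were long, with a median of 3950 nt against 1234 nt, so the 2 shares were not taken from UTRs of equal length.

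In Maf the windows lie at chr8:115704820-115704848 and chr8:115704272-115704300, in the 4316 nt UTR of the longer transcript. The shorter form of Maf has another 3′ UTR of 1847 nt, which holds neither match. The shorter 3′ UTRs of Lhx1 (107 nt) and Tfap2b (1453 and 277 nt) hold none either, whereas the 3 Rorb transcripts examined all hold the match. In Lhx1 they lie at chr11:84518893-84518921 and chr11:84518371-84518399, in Tfap2b at chr1:19238188-19238216 and in Rorb at chr19:18936588-18936616, all on GRCm38. For Maf and Lhx1, with 2 matches each, the log2 fold changes were 0.34 and 0.21, and for Tfap2b and Rorb, with a single match each, 0.099 and 0.068. Rora and Zfhx3, with log2 fold changes of 0.33 and 0.24, held no match in UTRs of 9285 and 4528 nt, and neither did Lmx1b, Tlx3, Pax2 or Lbx1. The Lhx1 and Tfap2b values turned without wild type replicate 1, and the Rorb value without wild type replicate 2, as given above. Those of Tfap2b (-0.015) and Rorb (-0.17) also turned with the length trend removed, so the order by number of matches was not stable. No test was made between members with and without a match.

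By level, FPKM being per transcript length, the members ran over the 8 libraries from Rora (mean 20.4 FPKM) through Lmx1b (16.8), Pax2 (15.2), Lbx1 (13.6), Maf (13.1), Tlx3 (7.26), Lhx1 (6.38), Rorb (4.52) and Tfap2b (3.22) to Zfhx3 (2.37). Neighbours in this order were compared within libraries by an exact sign-flip permutation test, two-sided, adjusted over the 9 pairs. The order came from the same 8 libraries, so the p-values describe how steady it was between libraries and are no independent test of it. Maf was above Tlx3 in 7 of 8 libraries by 0.79 ± 0.498 on the log2 scale (mean and SD, adjusted p = 0.0469, exact). Rorb was above Tfap2b in 8 of 8 by 0.39 ± 0.261, and Tfap2b above Zfhx3 in 7 of 8 by 0.33 ± 0.235, with the same adjusted p of 0.0469 in the exact test. The other 6 neighbours, among them Rora and Lmx1b (6 of 8 libraries, exact adjusted p = 0.176), did not differ beyond their spread.

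Over the 45 pairs of members, 29 had a positive Pearson r over the 8 libraries, 5 had an unadjusted p under 0.05 and 1 passed after adjustment. No such count was made over pairs of other genes. The pair that passed was Tlx3 and Lbx1, with r = 0.882 (exact permutation p = 0.000298, adjusted p = 0.0134) and Spearman's rho = 0.929 (exact p = 0.00223, adjusted p = 0.1). Without wild type replicates 1 and 4, the libraries farthest from the median of Tlx3, r was 0.838, and within genotypes, on deviations from the genotype means, it was 0.863. Leaving out each library in turn gave r of 0.873 to 0.919. The adjusted p was then above 0.05 without wild type replicate 4 (0.0536), knock-out replicate 1 (0.0804) or knock-out replicate 3 (0.0804), by exact permutation of 7 libraries. With the length trend removed r was 0.869, and with the GC trend also removed 0.837 (exact permutation, adjusted p = 0.117 and 0.197). Without wild type replicate 1, Lmx1b with Lbx1 (r = 0.973, adjusted p = 0.0357, exact permutation) and Lmx1b with Tlx3 (0.923, adjusted p = 0.0476) passed as well, where all 8 libraries gave r of 0.568 and 0.173. Other pairs passed, by exact permutation, with another library left out. They were Rora with Zfhx3 without wild type replicate 2 (r = 0.935, adjusted p = 0.0223) and Lhx1 with Zfhx3 without replicate 3 (0.767, adjusted p = 0.0446). Without wild type replicate 4, Lhx1 with Lbx1 passed (r = -0.887, adjusted p = 0.0446).

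Rora and Zfhx3, the longest transcripts, had r = 0.908 and rho = 0.857 (exact permutation, adjusted p = 0.1 and 0.231), and r = 0.966 without wild type replicate 2 and knock-out replicate 1. This fell to 0.65 with the length trend removed and 0.58 with both trends removed. Tlx3 and Lhx1, which act in opposite lineages, had r = -0.87 with rho of only -0.333 (exact permutation, adjusted p = 0.261 and 0.713). The value moved with the libraries left out: r was -0.087 without wild type replicate 1, -0.979 without wild type replicate 4 and -0.76 without both. Points in all pairs share their libraries, and with them depth and tissue makeup.

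**Figure D4:**
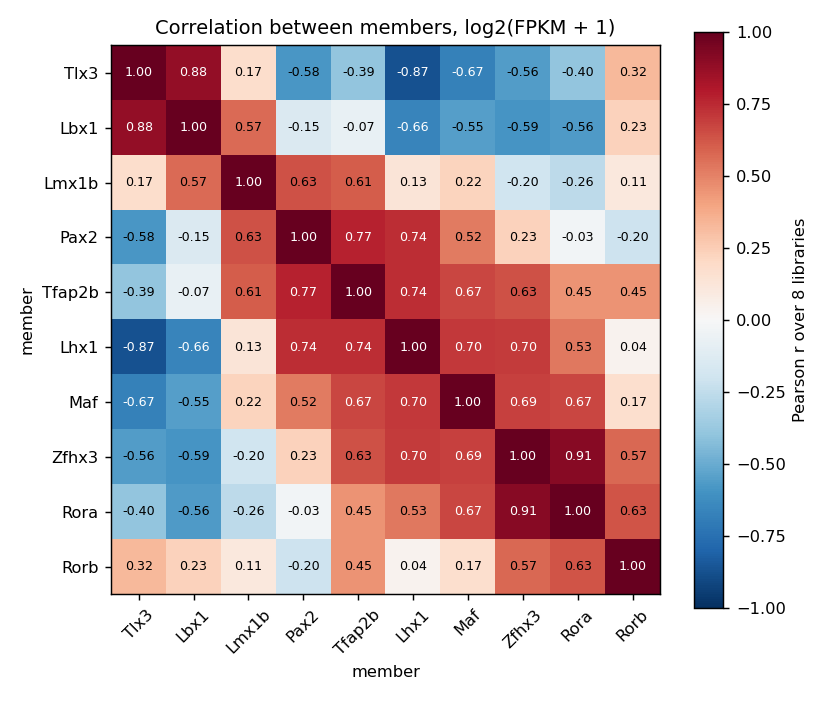
Pearson r between the members over the 8 libraries, on log2(FPKM + 1), with red for positive and blue for negative values. Tlx3 with Lbx1 (0.88) and Rora with Zfhx3 (0.91) are the highest pairs, and Tlx3 with Lhx1 (-0.87) the lowest.

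Library spread differed between the genotypes. The coefficient of variation was higher in wild type for 8 of 10 members, as for 75.7% of all genes tested, and without wild type replicate 1 for 6 of 10, as for 57.3% of genes. Wild type replicate 1 was the lowest library for Maf, Pax2, Lhx1, Tfap2b and Zfhx3 and the highest for Tlx3 and Lbx1. Knock-out replicate 1 was the highest for Rora and Zfhx3 and the lowest for Lmx1b, Tlx3 and Lbx1. Between the highest and the lowest library the ratio ran from 1.58 for Lmx1b to 2.64 for Lhx1.

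Family relatives were present beside most members. Of the 31 relatives listed, 13 had a mean of at least 1 FPKM and were tested, and 0 of them had an adjusted or unadjusted p under 0.05. Mafg, a small Maf protein without the activation domain of Maf, was the most abundant (79.0 ± 11.5 FPKM in wild type, 87.5 ± 4.79 FPKM in knock-out, SD, n = 4). Mafa, a large Maf protein, stood at 14.4 ± 0.822 and 14.3 ± 2.04 FPKM, a log2 difference of -0.015 (SE 0.11, adjusted p = 0.961 in limma) beside 0.34 for Maf. Zfhx2 (log2 fold change 0.29, SE 0.13) and Zfhx4 (0.30, SE 0.15) had values near the 0.24 of Zfhx3, each with a limma adjusted p of 0.62. In the Pax2 family, Pax8 (7.31 FPKM over the 8 libraries) and Pax6 (4.97 FPKM) had log2 fold changes of -0.12 and -0.012. In the Lhx1 family, Lhx5 (4.72 FPKM) and Lhx4 (1.38 FPKM) had log2 fold changes of -0.036 and 0.11. Tlx1, the sister of Tlx3, was listed at 0 in all 8 libraries, and Lmx1a had a mean of 0.0061 FPKM.

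**Figure D5:**
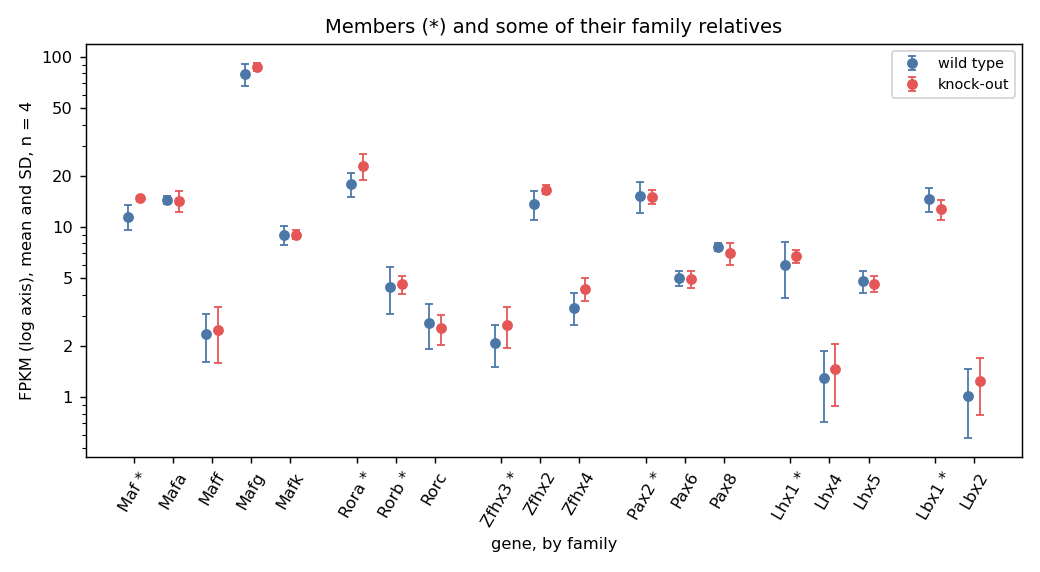
Mean FPKM and SD (n = 4) of genes of 6 families with a mean of at least 1 FPKM, on a log axis, with wild type in blue, knock-out in red and members marked by an asterisk. Mafg is the highest at 79.0 and 87.5 FPKM, and Lbx2 the lowest of those drawn at 1.02 and 1.24.

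Beyond the members, 44 other transcription factor genes of dorsal lineages were listed, of which 31 were tested. Of these 21 had a log2 fold change above 0 and 10 below, with a median of 0.052, and 0 had an unadjusted or adjusted p under 0.05 in limma. Among the lowest p were those of Zfhx4, given above, and of Tcf4, a bHLH factor (53.8 ± 16.3 and 71.4 ± 15.8 FPKM, SD, n = 4, log2 fold change 0.41, SE 0.22). Prrxl1, a partner of Tlx3 and Lmx1b in superficial excitatory neurons, was at 9.38 ± 1.12 and 8.95 ± 0.676 FPKM (SD, n = 4). Factors of progenitors and newborn neurons were scarce, with means over the 8 libraries of 0.0041 FPKM for Ptf1a, 0.086 for Prdm13 and 0.058 for Gsx1. The transmitter genes of the 2 classes did not pass either: Slc17a6 had a log2 fold change of 0.11 (SE 0.11), and 5 inhibitory genes ran from -0.16 for Slc32a1 to 0.26 for Gad2, the second GABA-synthesizing enzyme gene (0 of 5 at an unadjusted p under 0.05). Slc32a1 was lower in every knock-out library than in any wild-type library (86.4 ± 6.08 and 77.0 ± 3.86 FPKM, SD, n = 4), a separation in that direction found in 1.12% of genes.

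The genes whose profile over the 8 libraries was most like that of a member were found by the root mean square difference of log2(FPKM + 1), each gene centred on its own mean, among 10227 protein-coding genes with a mean of at least 5 FPKM. For Rora they were Taok1 (0.030) and Zfyve16 (0.037), for Maf Eml6 (0.061) and Nav2 (0.067), and for Pax2 Galnt17 (0.041) and Adck2 (0.048). Lbx1 was most like Zfp672 (0.046) and the Hox gene Hoxb5 (0.061), Rorb like Tmem47 (0.050) and Dcun1d1 (0.056), and Tfap2b like the potassium channel gene Kcnc2 (0.059) and the gephyrin gene Gphn (0.071). For Lmx1b they were Gsg1l (0.066) and Rtn4rl1 (0.071), for Zfhx3 Map9 (0.072) and Itgb8 (0.081), for Lhx1 Mast1 (0.087) and Gpr137c (0.088), and for Tlx3 Serf1 (0.099) and Rogdi (0.10). The members themselves varied around their own means by 0.192 (Lbx1) to 0.35 (Lhx1) on the same measure, and the median distance of all genes compared was 0.241 to 0.37.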

How the data were processed

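The authors deposited, per the file headers, 1 FPKM value per gene and library. Tools named, per the submitters' processing notes, are HISAT2, SAMtools and Cufflinks, with versions, roles and strand use not given in the sources used here. Build mm8 is named in the same notes. Loci in the deposited tables were nevertheless those of GENCODE M21 (GRCm38) for 91.5% of the 49326 identifiers with a symbol, and GRCm38 coordinates are given. FPKM are not counts, so no count model was fitted. Depth was estimated from the steps of 1 fragment in single-transcript genes of at least 3000 nt, assuming fragments of 200 nt (97.7% to 98.5% of values within 0.15 of a whole number, against 30% by chance).

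All genes with a mean of at least 1 FPKM were fitted with limma 3.58.1 in R 4.3.3 (eBayes with trend and robust settings) on log2(FPKM + 1) by two-sided tests. This scale understates changes of low genes. P-values had Benjamini-Hochberg adjustment over 15061 genes. The fit was tested on simulated data. Exact permutation p-values came from full enumeration in Python 3.11.15 (70 assignments of libraries to genotypes, or 40320 orders for a correlation of 8 libraries). The antisense genes Gm15655 and Gm15511 overlap exons of Maf and Rora and were at or below 0.0973 FPKM. Alternatives were another pseudocount, other filters, rescaling, quantile normalization, library weights, a replicate block, length and GC trends (lowess), and leaving out each library. Correlations under trend removal or with a library left out were added after seeing the data. The members and lists were chosen with earlier results of these data known. Named genes were the members, up to 3 genes of lowest p per list, family relatives, and the 2 genes most like each member. Tlx1, Lmx1a, Prrxl1, Ptf1a, Prdm13, Gsx1, Mnx1, En1, Foxp4, Nkx6-2, Esrrg and Alb were named after their values were seen. Some genes that the rule would name are not reported here.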

Additional observations from a re-analysis of the deposited data

How the results depend on the processing

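No gene passed limma's adjusted threshold in the reported fit (0 genes, 0 members, with 831 genes and 2 members at an unadjusted p under 0.05). Library weights gave 1627 genes and 2 members, and leaving out each library gave 0 to 1 genes and 0 members. In the fits without wild type replicate 4 and without knock-out replicate 1, 3151 and 325 genes had an unadjusted p under 0.05. Whether the replicate numbers pair libraries is not given in the labels. Deviations of same-numbered libraries had correlations of -0.108, -0.0551, 0.0241 and 0.144, and no wild-type library was most like its own number. These values do not settle whether the design was paired. With the replicate block 0 genes and 0 members passed, and 790 genes had an unadjusted p under 0.05.

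Maf, Lbx1 and, by leaving out libraries, Rora, Tlx3 and Zfhx3 kept their direction. Log2 fold changes that turned were, with library weights, Lmx1b 0.057, Tlx3 0.017, Pax2 -0.045 and Lhx1 -0.012; with the length trend removed, Pax2 -0.037, Tfap2b -0.015, Rorb -0.17 and Zfhx3 -0.12; with GC also removed, Tlx3 0.0031, Rora -0.0069, Tfap2b -0.030, Rorb -0.23 and Zfhx3 -0.088; and Pax2 with median-ratio rescaling (-0.012) or quantile normalization (-0.029). Leaving out each library gave -0.12 to 0.089 for Lmx1b, -0.14 to 0.076 for Pax2, -0.052 to 0.33 for Lhx1, -0.024 to 0.25 for Tfap2b and -0.052 to 0.21 for Rorb. None of these values passed the threshold, and the cause was not tested.

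The count of correlated pairs was 0 with the length trend, or the length and GC trends, removed (lowest adjusted p 0.117 and 0.0792, exact permutation) and 0 to 3 when a library was left out, with 0 without knock-out replicate 1 or 3 and 3 without wild type replicate 1.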

Other observations

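Transcription factor genes of ventral lineages, which a dorsal dissection holds in part, were listed with 34 symbols, of which 20 had a mean of at least 1 FPKM. Their summed level was 123 to 131 FPKM in wild type and 118 to 130 in knock-out. The 10 members summed to 91.9 to 118 FPKM in wild type and to 104 to 108 in knock-out. Foxp4, Nkx6-2 and Esrrg had the highest means of the ventral list (20.7, 20.1 and 16.4 FPKM over the 8 libraries). Nkx6-2 was highest in wild type replicate 1 (32.7 FPKM), the library with the highest sum of oligodendrocyte markers. How much of the ventral sum came from ventral neurons was not tested, so the sums do not give the share of ventral tissue. Of the 20, 12 had a log2 fold change above 0 and 0 had an unadjusted or adjusted p under 0.05 in limma. Foxd3 had the lowest p (1.83 ± 0.276 FPKM in wild type, 2.34 ± 0.154 FPKM in knock-out, SD, n = 4, log2 fold change 0.24) and was higher in every knock-out library than in any wild-type library, as were 1.91% of genes. It was followed by Sox21 (2.16 ± 0.447 and 1.71 ± 0.0586 FPKM, -0.21) and Foxp1 (12.2 ± 2.01 and 13.9 ± 1.30 FPKM, 0.18). Mnx1, which defines motor neurons, and En1, which marks ventral inhibitory interneurons, were below the filter with means of 0.631 and 0.776 FPKM. Across the 20 groups of 4 libraries formed by the members and genotypes, no library stood far enough from the others to pass Dixon's critical value of 0.829, the nearest being knock-out replicate 3 for Rorb (3.81 FPKM, gap over range 0.824).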
